A study of Mus musculus with 14 samples.

Results

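Skin fibroblasts from the tail tips of old mice were set against the induced pluripotent stem cell (iPSC) clones made from such fibroblasts. The comparison used every probe of the array with a detection p-value under 0.05 on all arrays of at least 1 of both groups. That rule kept 12839 of the 25697 probes, which stood for 8781 named genes. Of these probes, 10061 were detected on every array of both groups, 1797 on every A-iPSC array only and 981 on every A-SC array only.

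The A-iPSC group held 2 arrays, clones 16 and 19, derived from B6CBAF1 tail tip fibroblasts infected with retroviruses that carry mouse OCT4, SOX2 and KLF4 (pMX vectors) and MYC (a pEYK vector), and grown in embryonic stem cell medium with serum and leukemia inhibitory factor (LIF). The A-SC group held 3 arrays, labelled without a clone number (called A-SC 1 below), 1.3 and 1.4, of uninfected fibroblasts from the tail tip skin of 1.5-year-old B6CBAF1 mice, grown in DMEM with serum. Total RNA was measured on Illumina MouseRef-8 v2.0 BeadChips, on which beads carry 1 probe each. The series has 14 arrays: 2 A-iPSC, 2 A-iPSC-ZSCAN10, made from tail tip fibroblasts with the same factors and a doxycycline-inducible ZSCAN10, 2 Y-iPSC, 2 embryonic stem cell (ESC) arrays, 3 A-SC, and 3 Y-SC, fibroblasts from the skin of E17.5 B6CBAF1 embryos, the source of Y-iPSC. Each iPSC array stands for 1 clone code, and nothing in the labels says that the arrays of 1 group stand for separate cultures or animals. The p-values therefore measure the spread among these arrays, which may be partly technical. Within A-SC, sex-linked genes differed between arrays, as given below, so its arrays were not all repeats of the same sample. Differences of medium and of cell state cannot be told apart, since each group had its own medium.

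Reprogramming by these factors is known to pass through a mesenchymal-to-epithelial transition, in which fibroblasts lose their collagen-rich matrix and contractile fibres and gain cell-cell junctions. Fully reprogrammed cells are known to express a network of pluripotency factors from their own genes and to silence the viral copies. Tail tip cultures consist mainly of dermal fibroblasts, which secrete collagens, carry the surface proteins Thy1 and Pdgfra and keep HOX genes in the pattern of their body position.

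Values are normalized log2 signals, on which 1 unit is a doubling, and fold changes are A-iPSC over A-SC. Values of A-iPSC are given in the order 16, 19 and those of A-SC in the order 1, 1.3, 1.4. Differences were tested with limma over all 14742 probes detected in any group, and "rose" or "fell" marks a Benjamini-Hochberg adjusted p under 0.05. Between 48.4% and 49.8% of the probes were detected on the 5 arrays. The median standard deviation of a probe between arrays was 0.190 in A-iPSC and 0.333 in A-SC. Where a gene was detected on no array of 1 group, its fold is a bound computed against the lowest signal of a detected probe and is written as "at least".

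The labelled cell types were checked against marker genes. Of 12 fibroblast markers, 6 and 5 were detected in A-iPSC, against 10, 12 and 11 in A-SC. Their summed linear signals were 4611 and 4960 in A-iPSC, against 34443, 41373 and 41409 in A-SC. The ESC arrays D and H detected 10 and 11 of these markers, with sums of 6867 and 5217. Detection alone thus did not separate fibroblasts from ESC, while the summed signal did. Of 14 pluripotent cell markers with a probe, 8 and 7 were detected in A-iPSC, against 2, 3 and 3 in A-SC, while both ESC arrays detected all 14. Nanog, Esrrb, Lin28a, Gdf3, Tdgf1 and Utf1 were detected on neither A-iPSC array, so several defining markers of the labelled state were absent. The summed linear signal of the pluripotent cell markers was 8963 and 8736 in A-iPSC, against 413, 402 and 420 in A-SC.

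A-SC 1 stood apart from the other A-SC arrays. Over the 14742 probes of the fit its correlation was 0.923 with A-SC 1.3 and 0.928 with A-SC 1.4. The correlation was 0.978 between those 2 arrays and 0.978 between the A-iPSC arrays. Of 16593 genes, 56 lay at least 16-fold above both other A-SC arrays on A-SC 1 and 7 lay as far below, while no gene did so on A-SC 1.3 or on A-SC 1.4. Endothelial markers were the clearest group: A-SC 1 detected 10 of 12, all but Kdr and Vwf, with a summed linear signal of 38182, against 905 and 1000 on A-SC 1.3 and 1.4, and 2655 and 2330 on A-iPSC 16 and 19. Emcn, a sialomucin of venous and capillary endothelium, read 5.02 and 4.40 in A-iPSC, against 13.78, 4.44 and 4.37 in A-SC. Pecam1, an adhesion molecule of endothelial junctions, read 4.88 and 4.51 in A-iPSC, against 11.13, 4.41 and 4.34 in A-SC. A-SC 1 detected 10 of the 12 fibroblast markers as well. The sex-linked genes also split the group: Eif2s3y, on the Y chromosome, read 10.11 on A-SC 1 and was not detected on A-SC 1.3 and 1.4, where Xist read 8.27 and 8.68. Xist was not detected on A-SC 1 or in A-iPSC. Eif2s3y itself read 5.93 and 4.66 in A-iPSC, far under A-SC 1 and detected on A-iPSC 16 only, and Kdm5d, also on the Y chromosome, was not detected in A-iPSC and read 6.44 on A-SC 1. In the deposited table the intensities of A-SC 1.3 and 1.4 are written with 1 decimal, while those of A-SC 1 and both A-iPSC arrays have more digits. The labels give no reason for these number formats, and within A-SC format and culture cannot be told apart. Results that rest on A-SC 1 are therefore given with and without it.

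**Figure D1:**
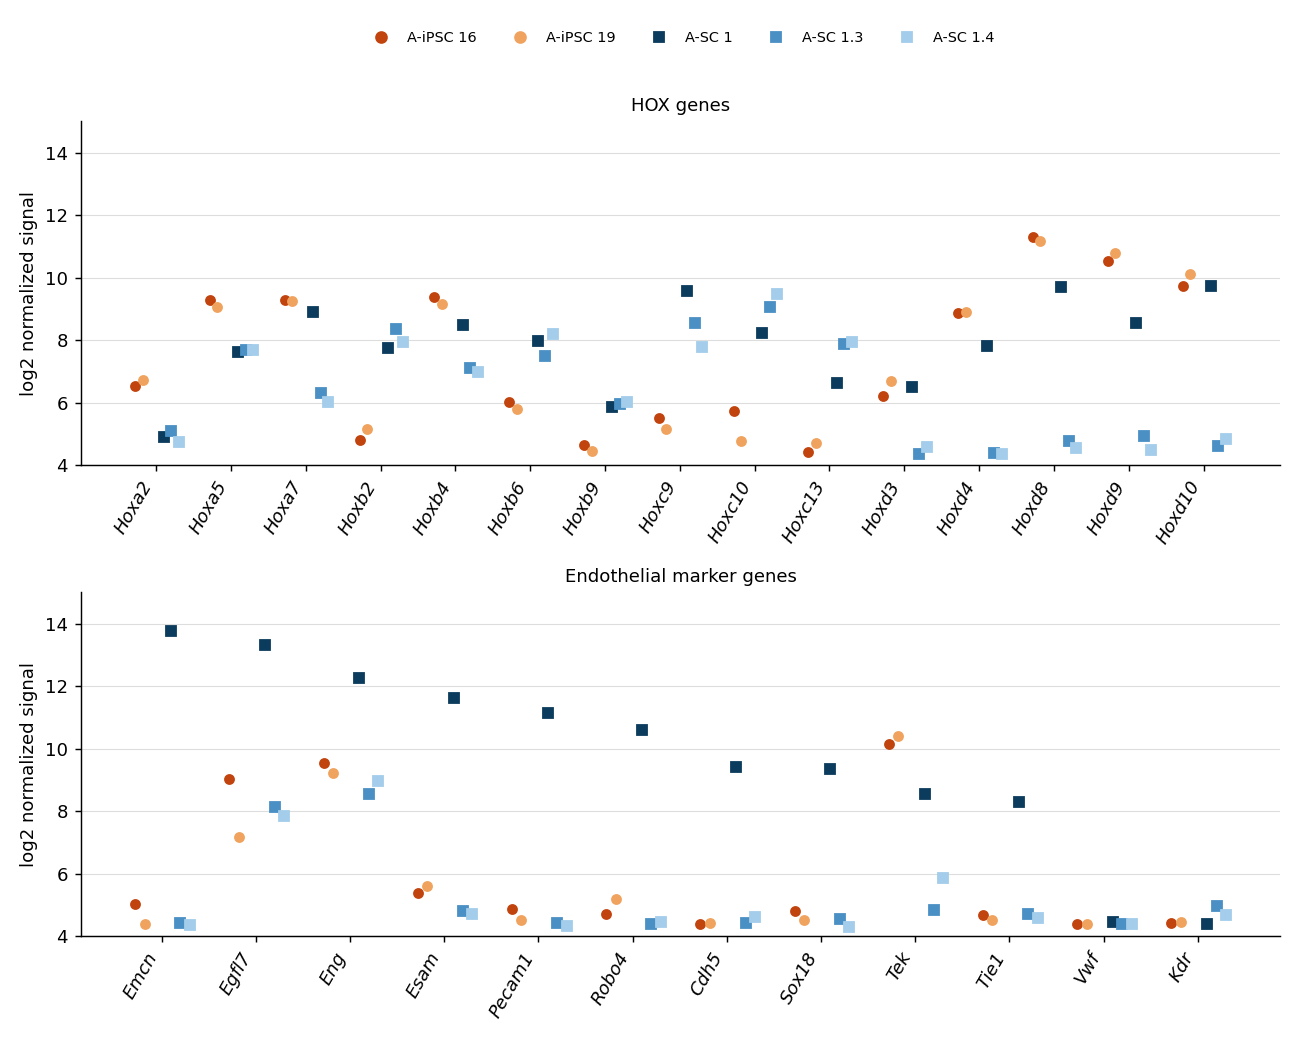
Normalized log2 signal (vertical axis) of 15 HOX genes and 12 endothelial marker genes on the 2 A-iPSC arrays and the 3 A-SC arrays, 1 point per array. On A-SC 1 most endothelial markers sit far above all other arrays, with Emcn at 13.78. Hoxd10 on A-SC 1 lies near the A-iPSC points. Hoxd4, Hoxd8 and Hoxd9 on A-SC 1 lie below the A-iPSC points and above A-SC 1.3 and 1.4.

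Of the 12839 probes, 2570 rose and 2246 fell, 4816 (37.5%) in all. Over all 14742 probes of the fit the share was 33.0%, 17.6% higher and 15.4% lower. Among the 10061 probes detected on every array of both groups, 1631 rose, 1590 fell and 6840 did not pass, so that 32.0% changed. Of the probes detected on every array of A-iPSC only, 939 rose and 858 did not pass, and of those detected on every array of A-SC only, 656 fell and 325 did not pass; in these last 2 classes a probe that passed could hardly go the other way, given how they were chosen. A change of at least 2-fold was seen in 3834 of the probes that passed and one of at least 16-fold in 294. Arrays of both groups did not overlap for 4802 of the 4816 probes, against 61.7% of all 12839. Over the 8781 genes, each taken by its brightest tested probe, 1784 rose, 1533 fell (37.8% in all), and the median log2 fold change was 0.086. Among all 10004 genes of the fit 33.4% changed, 17.9% higher and 15.5% lower. The gene lists below are read against these figures. With single arrays left out, the number of probes past the threshold ranged from 2730 without A-iPSC 19 and 3106 without A-iPSC 16 to 5151. Where 1 A-iPSC array was left, it was assumed to vary like the other groups.

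**Figure D2:**
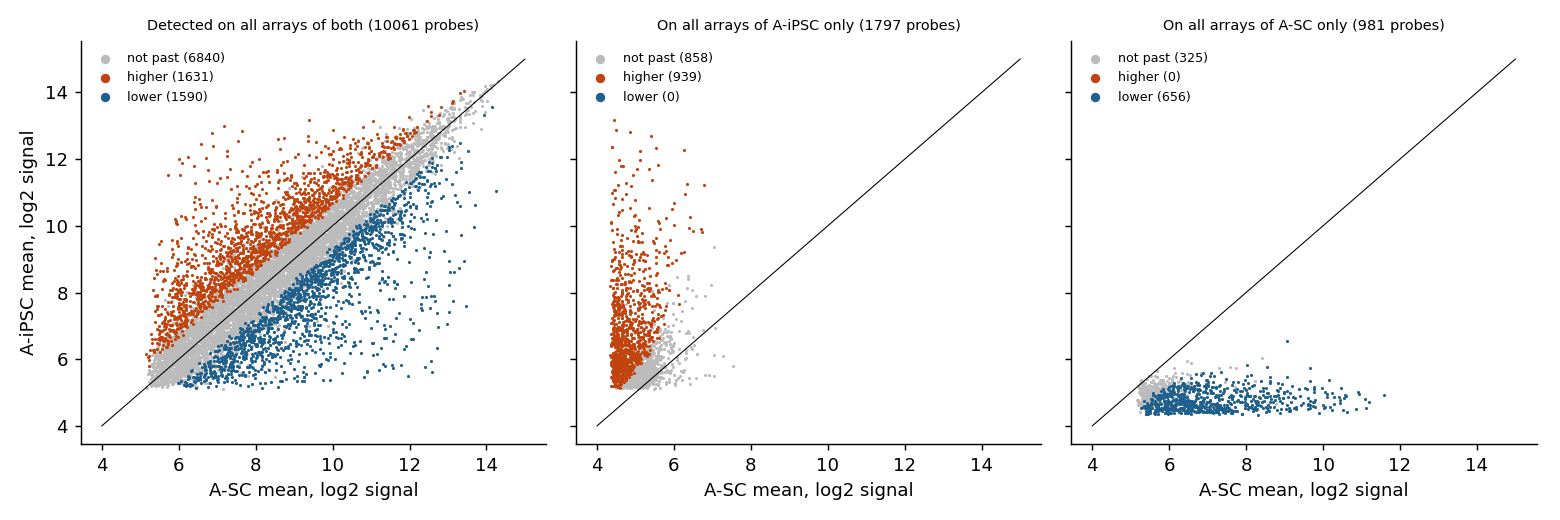
Mean log2 signal of each probe in A-iPSC against its mean in A-SC, in panels for probes detected on every array of both groups, of A-iPSC only and of A-SC only, with probes that rose, fell or did not pass in separate colours. The 1631 risen and 1590 fallen probes of the shared class lie on both sides of the diagonal in like number, while in each of the other 2 classes all probes that passed lie on 1 side.

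The introduced factors were the first genes examined. Pou5f1, which encodes OCT4, read 12.33 and 12.18 in A-iPSC, against 5.16, 5.29 and 4.94 in A-SC, a log2 fold change of 7.13 ± 0.29 (SE, adjusted p = 3.78e-08). Its level differed from that of ESC, 12.26 and 11.58, by 0.34 ± 0.32 (adjusted p = 0.458). Sox2 read 10.75 and 11.18 in A-iPSC and was detected on no A-SC array, at least 58.4-fold higher (adjusted p = 5.19e-07), but a second, dimmer Sox2 probe changed by -0.05. Klf4 averaged 11.32 ± 0.45 in A-iPSC (SD, n = 2), against 8.58 ± 0.71 in A-SC (SD, n = 3), with no overlap. It rose by 2.73 ± 0.51 (adjusted p = 0.00173). However, 1 of its 3 probes went the other way and passed as well, with a change of -1.55 (adjusted p = 0.0109). Both Sox2 and Klf4 were higher in A-iPSC than in ESC, by 1.68 ± 0.39 (adjusted p = 0.00629) and 2.32 ± 0.55 (adjusted p = 0.00761). Whether these probes read the viral copies, the cells' own genes or both is not stated in the labels and was not tested. Of the 4 reprogramming factors, each taken by its brightest probe, 3 rose and none fell.

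Of 10 measured genes of naive pluripotency, 4 rose and 1 fell, with a median of 1.61. Sall4, a zinc finger factor of embryonic stem cells, read 9.58 and 9.19 in A-iPSC and was not detected in A-SC, at least 19.5-fold higher (adjusted p = 1.63e-06), yet 2.94 ± 0.36 below ESC (adjusted p = 0.000136). L1td1, an RNA-binding protein derived from a retroelement, read 10.10 and 9.37 in A-iPSC and was not detected in A-SC, at least 24.9-fold higher. Fbxo15, a reporter gene of early reprogramming work, read 8.48 and 8.21 in A-iPSC, at least 9.49-fold higher, against 11.32 and 11.84 in ESC. So the genes that rose reached levels under those of ESC, apart from Pou5f1, Sox2 and Klf4. Zfp296, a zinc finger protein of stem cells and germ cells, read 7.74 and 8.04 in A-iPSC, against 5.56, 5.44 and 5.28 in A-SC, and rose by 2.47 ± 0.53.

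Central factors of the network were not detected in A-iPSC. Nanog read 4.99 and 4.44 in A-iPSC, against 5.06, 5.12 and 4.40 in A-SC and 12.12 and 12.07 in ESC. Esrrb, a nuclear receptor of naive stem cells, read 4.44 and 4.49 in A-iPSC, against 4.65, 4.43 and 4.37 in A-SC and 12.85 and 12.64 in ESC. Both genes were too dim in both groups to count among the 12839 probes. Zscan10, the zinc finger factor named in the series title, read 5.17 and 4.48 in A-iPSC, detected on the first only, and 4.57, 4.63 and 4.46 in A-SC. Zfp42 was detected in A-iPSC at 5.29 and 5.76, against 4.96, 4.90 and 5.92 in A-SC, and its change of 0.26 ± 0.38 did not pass (adjusted p = 0.635). Dnmt3l, a cofactor of de novo DNA methylation, fell: it was not detected in A-iPSC, read 7.08, 7.60 and 6.94 in A-SC, at least 4.30-fold lower (adjusted p = 3.88e-05), and 12.57 and 13.31 in ESC. Among 12 oncofetal RNA-binding and chromatin genes 1 rose and 1 fell: Suz12, a subunit of Polycomb complex PRC2, rose by 1.57 ± 0.28 (adjusted p = 0.00124), with 12.54 and 12.43 in A-iPSC against 10.69, 11.38 and 10.70 in A-SC, and Igf2bp3, an mRNA-binding protein, fell by 2.19 on the log2 scale (SE 0.33). Without A-SC 1 both counts of this list were 2, and without A-SC 1.3 the number of risen genes was 2. Of 2 germline genes controlled by DNA methylation, 1 rose.

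The extracellular matrix made up the largest fall. All 7 measured fibrillar and type VI collagen genes fell, with a median of -5.38, or -4.91 with the 4 genes not detected in A-iPSC at their bounds, and the values below show A-iPSC far under A-SC with no overlap. Col1a1, the main chain of type I collagen, read 7.54 and 7.30 in A-iPSC, against 12.13, 13.43 and 13.50 in A-SC (-5.60 ± 0.61, adjusted p = 5.04e-05). Col1a2, the partner chain, was not detected in A-iPSC and read 8.59, 11.02 and 10.41 in A-SC, at least 30.0-fold lower (adjusted p = 0.00248). Col6a1, a chain of the beaded filaments around cells, read 7.05 and 6.88 in A-iPSC, against 12.60, 13.18 and 12.44 in A-SC (-5.78 ± 1.03, adjusted p = 0.00139). Its partner Col6a2 was at least 40.3-fold lower. Col3a1 was detected on no A-iPSC array and was at least 24.8-fold lower (adjusted p = 0.00716), but did not pass without A-iPSC 19 (-4.70, adjusted p = 0.0640). Col5a1, which helps set fibril diameter, kept a signal in A-iPSC, 8.19 and 8.27, against 12.19, 13.47 and 13.41 in A-SC. In bulk RNA, fewer cells of a type and less RNA per cell cannot be told apart.

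Of 14 genes of collagen processing and crosslinking 9 fell and 1 rose, with a median of -2.47, or -1.95 with undetected genes at their bounds; the risen count was 0 without A-iPSC 19. Lox, the enzyme that crosslinks collagen and elastin, read 8.78 and 9.09 in A-iPSC, against 12.99, 13.62 and 13.67 in A-SC (-4.49 ± 0.53, adjusted p = 8.70e-05). Its relative Loxl1 fell by 3.33 on the log2 scale (SE 0.45), and Pcolce, which promotes cleavage of the procollagen propeptide, fell by 3.27 (SE 0.54). Of 18 proteoglycans and matricellular proteins 15 fell and none rose, with a median of -3.41. Tnc, tenascin C, had the largest fall of any named gene detected on every array of both groups: it read 6.05 and 5.83 in A-iPSC, against 12.39, 13.01 and 12.25 in A-SC (-6.61 ± 0.42, adjusted p = 1.01e-06), and all 6 of its tested probes were lower. Ccn4, a matricellular protein of the CCN family, read 5.80 and 5.17 in A-iPSC, against 11.70, 12.20 and 11.95 in A-SC (-6.47 ± 0.46, adjusted p = 1.96e-06). Thbs1, thrombospondin 1, fell by 5.83 on the log2 scale (SE 0.75). Dcn, decorin, read 4.82 and 5.21 in A-iPSC, against 12.10, 11.31 and 9.33 in A-SC. The family did not move as one: Ccn1 changed by 0.11 and Ccn2 by -0.96, and neither passed. Mgp, matrix Gla protein, changed by -0.82 and did not pass, and against A-SC 1 alone, among arrays of the longer number format only, it changed by 1.89 (adjusted p = 0.0104), with the lone A-SC array assumed to vary like the other groups.

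Of 15 matrix proteases and inhibitors 12 fell and none rose, with a median of -3.29; 7 fell without A-iPSC 19. Serpinf1, the secreted serpin PEDF, read 7.52 and 7.65 in A-iPSC, against 13.02, 13.79 and 13.60 in A-SC (-5.88 ± 0.62, adjusted p = 3.76e-05). Mmp2, a gelatinase, read 8.06 and 8.57 in A-iPSC, against 11.99, 12.08 and 12.03 in A-SC (-3.72 ± 0.55, adjusted p = 0.000405). The proteases Adamts5 and Mmp10 fell as well, Adamts5 by 3.90 on the log2 scale and Mmp10 by at least 9.85-fold, and so did the inhibitor Timp2, which fell by 3.63. Proteases and inhibitors thus fell together.

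Of 13 basement membrane genes 7 fell and 2 rose, with a median of -1.75; 1 rose without A-iPSC 16. Col4a2, a chain of the type IV collagen network, read 6.68 and 5.97 in A-iPSC, against 13.20, 12.22 and 12.74 in A-SC (-6.40 ± 0.38, adjusted p = 7.02e-07). Col4a1, which shares a promoter region with it and is transcribed the other way, read 7.57 and 6.57 in A-iPSC, against 13.03, 12.83 and 13.05 in A-SC (-5.90 ± 0.38, adjusted p = 1.06e-06). Nid1, which links laminin to type IV collagen, fell by 4.35 on the log2 scale (SE 0.58). The laminin chain gene Lama4 went the other way: it was detected in A-iPSC at 5.63 and 6.01 and not in A-SC, at least 1.65-fold higher (adjusted p = 0.00217).

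**Figure D3:**
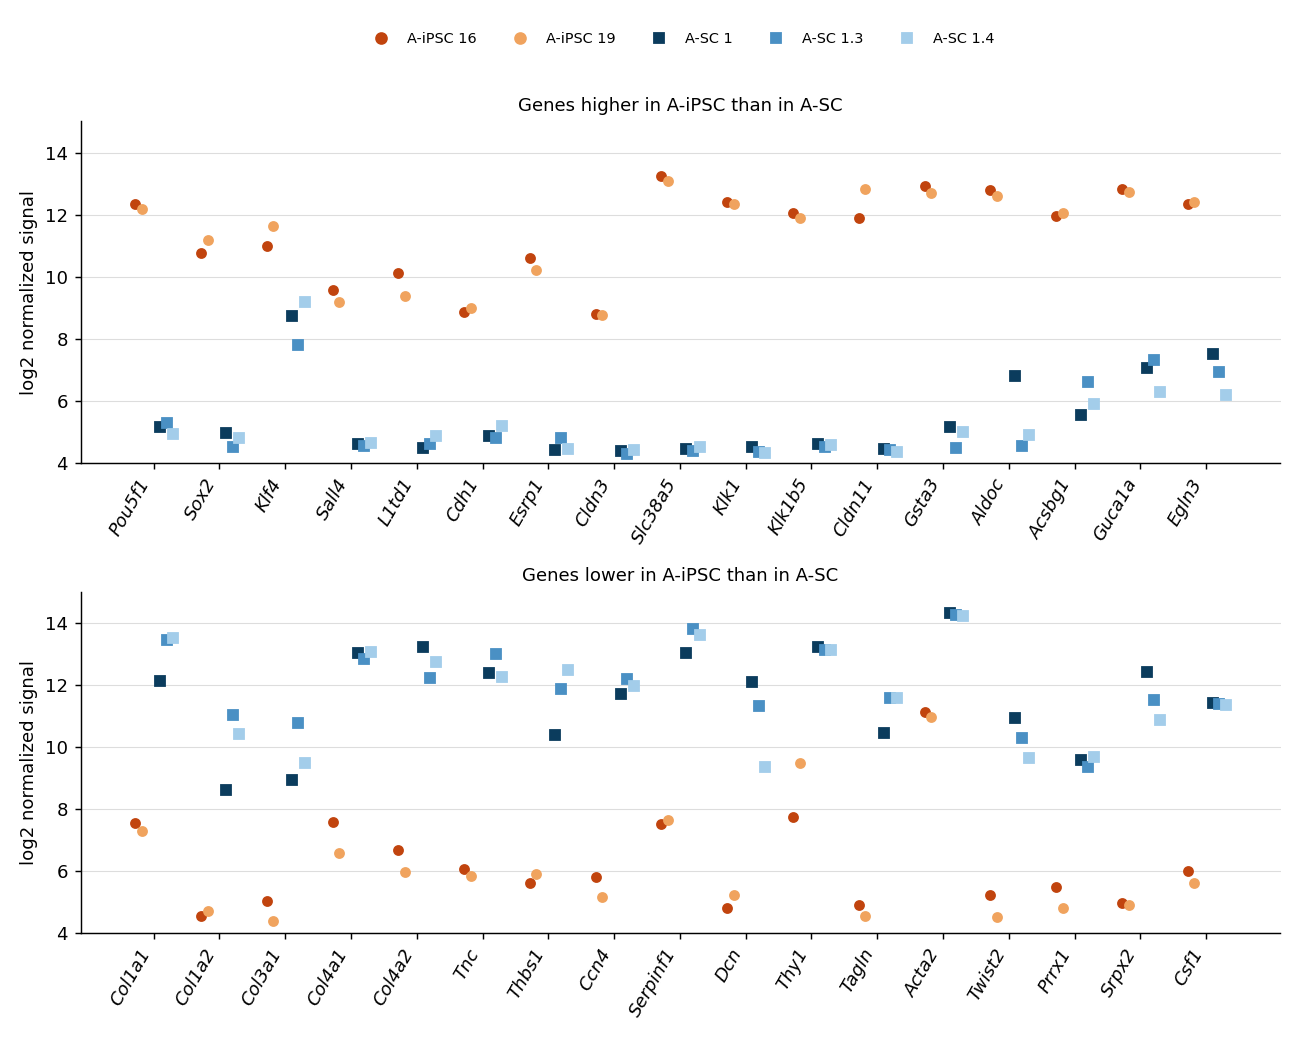
Normalized log2 signal (vertical axis) of 17 genes that were higher and 17 that were lower in A-iPSC than in A-SC, with 1 point for each of the 2 A-iPSC and 3 A-SC arrays. In both panels the points of a gene fall into 2 separate bands, and A-SC 1 differs most from the other A-SC arrays for Aldoc, at 6.80, and for Col1a2, at 8.59.

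The 6 largest falls among genes detected on every A-SC array only were Srpx2, Mfap5, Tagln, Igfbp5, Olfml3 and Mrgprf. Srpx2, a secreted sushi-repeat protein, was not detected in A-iPSC and read 12.42, 11.51 and 10.87 in A-SC, at least 90.4-fold lower (adjusted p = 4.38e-05). Mfap5, a protein of elastic microfibrils, was at least 65.3-fold lower and Tagln, the actin-binding protein transgelin, at least 68.6-fold lower. Igfbp5, which binds insulin-like growth factors, was at least 63.1-fold lower, Olfml3, a secreted olfactomedin-like protein, at least 46.2-fold, and Mrgprf, a receptor of the Mas-related family, at least 42.6-fold. Among fibroblast surface markers, Thy1 read 7.75 and 9.49 in A-iPSC, against 13.22, 13.13 and 13.12 in A-SC (-4.54 ± 0.49, adjusted p = 4.38e-05), and still had a detected signal in both clones. Pdgfrb, a receptor of platelet-derived growth factor, was not detected in A-iPSC and was at least 20.8-fold lower, while its relative Pdgfra read 5.16 and 5.11 in A-iPSC, against 10.29, 10.09 and 9.53 in A-SC (-4.83 ± 0.76). S100a4, a calcium-binding protein of fibroblasts, fell by 4.75 on the log2 scale (SE 0.50). Vim, the intermediate filament vimentin, fell by 1.45 (SE 0.34, adjusted p = 0.00704), and by 1.43 without A-iPSC 19, where it did not pass (adjusted p = 0.0514). Cd44, a hyaluronan receptor, had probes that disagreed: its brightest changed by -1.17 (adjusted p = 0.0930) and the other 4 were higher, by 0.99 to 3.44.

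Contractile and adhesion genes fell with the matrix, 14 of 17 with none higher and a median of -1.61. Acta2, smooth muscle actin, read 11.12 and 10.97 in A-iPSC, against 14.33, 14.24 and 14.21 in A-SC (-3.21 ± 0.21, adjusted p = 1.40e-06). Tpm2, a tropomyosin, read 7.40 and 6.80 in A-iPSC, against 12.18, 12.14 and 11.99 in A-SC (-5.00 ± 0.53). Itga5, the fibronectin receptor subunit, and Cav1, the coat protein of caveolae, each fell by 3.65. Of 15 mesenchymal transition factors 9 fell and none rose, with a median of -1.59. Twist2 read 5.22 and 4.50 in A-iPSC, against 10.94, 10.29 and 9.63 in A-SC (-5.43 ± 0.67, adjusted p = 0.000122), whereas its paralog Twist1 read 8.60 and 9.87 in A-iPSC, against 8.77, 9.93 and 9.84 in A-SC, with arrays that overlapped. Prrx1, a homeobox factor of limb and dermal mesenchyme, fell by 4.39 on the log2 scale (SE 0.58). Zeb2 and Snai1, repressors of the E-cadherin gene, fell too, Zeb2 by at least 13.4-fold and Snai1 by 3.60 on the log2 scale. Foxc2, a forkhead factor of mesenchyme, was at least 5.86-fold lower. Cdh2, N-cadherin, read 5.20 and 4.89 in A-iPSC, against 7.67, 7.87 and 8.17 in A-SC.

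Epithelial junction genes went the opposite way: 15 of 18 rose, none fell, and the median was 2.24, or 1.92 with undetected genes at their bounds; 9 rose without A-iPSC 19. Of the 18, 15 were detected on every A-iPSC array only, so their direction was largely set by the choice of probes. Cdh1, E-cadherin, read 8.85 and 8.99 in A-iPSC, against 4.88, 4.80 and 5.20 in A-SC (3.96 ± 0.28, adjusted p = 1.85e-06). Esrp1, an epithelial splicing regulator, read 10.61 and 10.21 in A-iPSC, and no A-SC array detected it, at least 39.8-fold higher. The tight junction genes Cldn3 and Ocln were at least 12.8-fold and at least 2.54-fold higher. Pkp1, a desmosomal plaque protein, rose by 4.35 (SE 0.41), and Spint1, an inhibitor of membrane-bound serine proteases, was at least 5.19-fold higher.

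The repressors of the SNAI and ZEB families are known to bind E-box elements, and 1 such element, CAGGTG, was searched on both strands of the RefSeq promoters (GRCm38.p6, 300 bases, from 250 before to 50 after each start), in which 7172 of the 8781 genes had an entry. CAGGTG was 1 of 12 motifs searched, and was chosen for the text after the shares were seen. It stood in 34.6% of 474 promoters of genes that rose and were detected on every A-iPSC array only, and in 19.5% of 416 promoters of genes of that class that did not pass. Among genes detected on every array of both groups it stood in 17.7% of 963 that rose, 14.1% of 934 that fell and 15.5% of 3941 that did not pass. Over all 27025 listed promoters the share was 20.0%. In the epithelial junction list 8 of 12 promoters held it, 7 of them among the 9 genes that rose. A match is a description of letters and says nothing of binding. The promoters of the tight junction genes Cldn3 (chr5:134985964-134986263, plus strand) and Ocln (chr13:100552669-100552968, minus strand) are shown 5′ to 3′, with the element or its reverse complement in capitals.
Cldn3: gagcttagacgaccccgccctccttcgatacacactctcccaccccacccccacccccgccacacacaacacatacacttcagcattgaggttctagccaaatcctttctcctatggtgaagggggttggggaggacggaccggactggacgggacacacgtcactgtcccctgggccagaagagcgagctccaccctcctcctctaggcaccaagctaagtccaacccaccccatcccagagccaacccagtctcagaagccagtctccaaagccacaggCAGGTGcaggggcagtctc
Ocln: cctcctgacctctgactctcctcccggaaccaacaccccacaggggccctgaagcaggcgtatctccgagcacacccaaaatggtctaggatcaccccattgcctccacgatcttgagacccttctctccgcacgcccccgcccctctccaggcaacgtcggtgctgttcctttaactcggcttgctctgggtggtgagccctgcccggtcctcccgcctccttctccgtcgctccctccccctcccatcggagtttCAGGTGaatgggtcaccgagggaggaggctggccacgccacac

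The genes with the largest rise were transport, kallikrein and metabolic genes. Slc38a5, a transporter of glutamine and other neutral amino acids, read 13.23 and 13.10 in A-iPSC and was detected on no A-SC array, at least 268-fold higher (adjusted p = 1.23e-09). Cldn11, a claudin of myelin and Sertoli cells, read 11.89 and 12.81 in A-iPSC and was at least 153-fold higher. Gsta3, a glutathione transferase, read 12.92 and 12.68 in A-iPSC, against 5.15, 4.47 and 4.98 in A-SC (7.94 ± 0.83, adjusted p = 3.59e-05). Among genes detected on every array of both groups, Acsbg1, which activates long-chain fatty acids, read 11.96 and 12.04 in A-iPSC, against 5.55, 6.59 and 5.90 in A-SC (5.99 ± 0.36, adjusted p = 6.87e-07). Guca1a, a guanylate cyclase activator known from photoreceptors, rose by 5.91 (SE 0.42), and Nt5e, the ecto-nucleotidase CD73, by 5.84 (SE 0.59). Slc7a3, a transporter of cationic amino acids, rose by 5.81 (SE 1.29), Aldh3a1, an aldehyde dehydrogenase, by 5.78 (SE 0.70), and Egln3, a prolyl hydroxylase that acts on hypoxia-inducible factors, by 5.50 (SE 0.37). No array of A-iPSC overlapped one of A-SC for any of these genes.

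Kallikreins are secreted serine proteases encoded by a cluster of near-identical genes on mouse chromosome 7, and a probe of 1 gene may read another. Klk1, tissue kallikrein, read 12.39 and 12.34 in A-iPSC, against 4.52, 4.34 and 4.32 in A-SC, where no array detected it, at least 154-fold higher (adjusted p = 1.00e-08). Klk1b5 read 12.04 and 11.89 in A-iPSC, at least 117-fold higher, and Klk1b27 read 11.78 and 11.83, at least 104-fold higher. Other members of the cluster rose less, Klk1b11 by at least 2.58-fold and Klk1b8 by at least 1.61-fold. Which members carried the signal was not tested, because the probe sequences were not used here. The promoters of the 3 strongest are shown as RefSeq gives them (GRCm38.p6; Klk1 at chr7:44225110-44225409, Klk1b5 at chr7:44216224-44216523 and Klk1b27 at chr7:44052040-44052339, all on the plus strand), again with CAGGTG or its reverse complement in capitals. Over a global alignment Klk1b5 and Klk1b27 were identical at 71.9% of columns, Klk1 and Klk1b27 at 51.2%, and Klk1 and Klk1b5 at 45.7%. Gaps and unmatched ends counted as differences, with 180 identical positions in 394 columns for Klk1 and Klk1b5. The windows were offset, since CAGGTG began at -87 from the start in Klk1 and at -179 in Klk1b5. These shares therefore do not measure how alike the shared stretches are.
Klk1: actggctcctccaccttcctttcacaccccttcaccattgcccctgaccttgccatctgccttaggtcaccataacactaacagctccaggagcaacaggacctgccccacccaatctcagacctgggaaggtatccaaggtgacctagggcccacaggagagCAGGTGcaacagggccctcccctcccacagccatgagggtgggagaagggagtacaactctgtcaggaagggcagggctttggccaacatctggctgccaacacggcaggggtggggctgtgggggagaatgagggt
Klk1b5: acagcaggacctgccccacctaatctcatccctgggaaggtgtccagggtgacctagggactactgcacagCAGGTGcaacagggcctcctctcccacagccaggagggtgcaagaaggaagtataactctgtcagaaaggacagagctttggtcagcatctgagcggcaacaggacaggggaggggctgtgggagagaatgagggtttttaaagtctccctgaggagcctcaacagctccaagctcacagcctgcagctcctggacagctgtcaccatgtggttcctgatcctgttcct
Klk1b27: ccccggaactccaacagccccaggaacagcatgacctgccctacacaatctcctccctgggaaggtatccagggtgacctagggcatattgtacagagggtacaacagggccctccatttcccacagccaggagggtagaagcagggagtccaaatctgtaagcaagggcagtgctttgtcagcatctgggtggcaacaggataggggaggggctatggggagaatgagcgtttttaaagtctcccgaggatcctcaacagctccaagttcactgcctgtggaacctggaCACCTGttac

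HOX genes, the homeobox clusters that set position along the body, went both ways: of 21 measured genes 8 rose, 6 fell and 7 did not pass, with a median of -0.18. The rise lay largely in the HOXD cluster and rested on the arrays A-SC 1.3 and 1.4. Hoxd9 read 10.54 and 10.80 in A-iPSC, against 8.54, 4.93 and 4.50 in A-SC (4.68 ± 1.07, adjusted p = 0.00580). Hoxd8 read 11.29 and 11.19 in A-iPSC, against 9.72, 4.77 and 4.54 in A-SC (4.90 ± 1.20, adjusted p = 0.00864). Hoxd4 read 8.86 and 8.91 in A-iPSC, against 7.83, 4.39 and 4.37 in A-SC (3.35 ± 0.88, adjusted p = 0.0125). For these 3 genes A-SC 1 alone among the A-SC arrays had a detected signal, and it lay below both A-iPSC arrays. Hoxd10 read 9.73 and 10.12 in A-iPSC, against 9.74, 4.63 and 4.84 in A-SC, so that A-SC 1 overlapped A-iPSC.

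These calls were not stable. Without A-iPSC 16 the changes of Hoxd8 and Hoxd4 were 4.85 and 3.37 (adjusted p = 0.0550 and 0.0664), and without A-iPSC 19 they were 4.95 and 3.33 (adjusted p = 0.0558 and 0.0758). Hoxd10, at 3.52 ± 1.20 (adjusted p = 0.0417), did not pass without A-iPSC 16 (3.72, adjusted p = 0.129), A-iPSC 19 (3.33, adjusted p = 0.181), A-SC 1.3 (2.64, adjusted p = 0.131) or A-SC 1.4 (2.74, adjusted p = 0.135). The number of HOX genes that rose was 8 without A-SC 1, 2 without either A-iPSC array, 4 without A-SC 1.3 or without A-SC 1.4, and 0 when only arrays of the longer number format, among them A-SC 1 as the single A-SC array, were fitted; in that fit Hoxd9 changed by 2.13 (adjusted p = 0.105). The falls included genes of other clusters that all 3 A-SC arrays detected. Hoxc13 was not detected in A-iPSC and read 6.65, 7.87 and 7.96 in A-SC, at least 5.25-fold lower (adjusted p = 0.000110). Hoxc10 read 5.74 and 4.78 in A-iPSC, against 8.25, 9.08 and 9.48 in A-SC (-3.67 ± 0.69), and Hoxb2 read 4.81 and 5.16 in A-iPSC, against 7.76, 8.37 and 7.94 in A-SC (-3.04 ± 0.57). Hoxa2 rose by 1.72 (SE 0.38). Without A-iPSC 19, 3 HOX genes fell. Of 8 limb and trunk identity factors 3 fell and 1 rose; 1 fell and none rose without A-iPSC 19, none rose without A-iPSC 16 and 2 rose without A-SC 1. En1, a homeobox factor of ventral limb skin, was not detected in A-iPSC and read 6.40, 8.19 and 8.28 in A-SC, at least 5.75-fold lower.

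Glycolysis genes rose: 13 of 21, with none lower and a median of 1.4. Aldoc, aldolase C, read 12.80 and 12.60 in A-iPSC, against 6.80, 4.56 and 4.89 in A-SC (7.28 ± 0.54, adjusted p = 3.01e-06). Eno2, an enolase, read 12.48 and 12.61 in A-iPSC, against 8.83, 6.65 and 7.11 in A-SC (5.01 ± 0.56, adjusted p = 5.62e-05). Pdk1, a kinase that shuts pyruvate dehydrogenase, read 11.21 and 10.48 in A-iPSC, against 7.70, 6.98 and 7.87 in A-SC (3.32 ± 0.31, adjusted p = 1.66e-05). The early enzymes rose too: the hexokinase Hk2 by 2.17 (SE 0.32), and the phosphofructokinases Pfkp by 2.14 (SE 0.34) and Pfkm by 1.66 (SE 0.31). Pgk1, phosphoglycerate kinase, rose by 1.4 (SE 0.30), but its probe was dim. It read 7.04 and 6.72 in A-iPSC, against 5.32, 5.38 and 5.76 in A-SC, close to background. Of enzymes already bright in A-SC, Ldha, lactate dehydrogenase, changed by 0.16 (adjusted p = 0.541), and the brightest Gapdh probe by 0.34 (adjusted p = 0.209), while a second Gapdh probe rose by 0.76 (adjusted p = 0.00823). The glucose transporters parted. Slc2a1 read 12.20 and 12.50 in A-iPSC, against 11.75, 10.65 and 10.42 in A-SC, and rose by 1.4 (SE 0.36, adjusted p = 0.0109), by 1.25 without A-iPSC 19, where it did not pass (adjusted p = 0.0928). Slc2a3 read 8.16 and 5.90 in A-iPSC, against 6.60, 7.58 and 7.19 in A-SC, and did not pass.

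Hypoxia-inducible factors are known to act through elements with the letters ACGTG, and several glycolysis genes are among their known targets. These letters, 1 of the 12 motifs searched, stood on either strand in 11 of 20 promoters of the glycolysis list (55.0%), 7 of them among the 13 genes that rose. They stood in 29.2% of 963 promoters of genes detected in both groups that rose, 26.6% of 934 that fell and 27.4% of 3941 that did not pass, and in 19.7% of all 27025. The promoters of Aldoc (chr11:78322823-78323122, plus strand) and of Egln3 (chr12:54203825-54204124, minus strand) are shown with these letters or their reverse complement in capitals; the match says nothing of binding.
Aldoc: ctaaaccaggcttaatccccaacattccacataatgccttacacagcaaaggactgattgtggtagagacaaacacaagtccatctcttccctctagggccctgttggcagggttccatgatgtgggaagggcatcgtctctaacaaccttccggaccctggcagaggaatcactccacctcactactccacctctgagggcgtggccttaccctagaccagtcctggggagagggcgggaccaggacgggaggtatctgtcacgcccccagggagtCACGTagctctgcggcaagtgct
Egln3: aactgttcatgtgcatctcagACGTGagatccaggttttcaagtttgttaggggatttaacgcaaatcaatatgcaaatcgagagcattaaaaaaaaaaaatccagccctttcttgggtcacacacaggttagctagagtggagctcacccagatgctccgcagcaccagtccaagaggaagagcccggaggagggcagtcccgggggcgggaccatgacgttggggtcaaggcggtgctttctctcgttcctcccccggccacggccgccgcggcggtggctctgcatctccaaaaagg

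Of 29 genes of oxidative phosphorylation 6 rose and none fell, with a median of 0.36; 2 rose without A-iPSC 16 and 3 without A-iPSC 19. Cox7a1, the muscle-type subunit of cytochrome c oxidase, stood out with 10.18 and 10.13 in A-iPSC, against 5.06, 5.46 and 6.22 in A-SC (4.58 ± 0.35, adjusted p = 3.14e-06). Of 25 glutathione genes 11 rose and 4 fell, with a median of 0.68; 6 rose without either A-iPSC array, 7 rose without A-SC 1.3, and 2 fell without A-iPSC 16. Gpx2, a glutathione peroxidase of epithelia, read 10.32 and 9.86 in A-iPSC and was detected on no A-SC array, at least 31.8-fold higher (adjusted p = 3.92e-08). Gstt3, a theta class transferase, rose by 2.59 (SE 0.38). Gss, glutathione synthetase, rose by 1.24 (SE 0.32, adjusted p = 0.0117), and by 1.12 without A-iPSC 19, where it did not pass (adjusted p = 0.0942). Gpx8, a peroxidase of the endoplasmic reticulum, went the other way with 7.70 and 7.39 in A-iPSC, against 12.37, 12.51 and 12.70 in A-SC (-4.99 ± 0.43, adjusted p = 9.32e-06).

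Of 22 lysosome genes 5 fell and 2 rose; 3 fell without either A-iPSC array, and 5 rose without A-SC 1. Ctsk, a collagen-degrading cathepsin, read 6.60 and 6.19 in A-iPSC, against 12.34, 11.55 and 11.87 in A-SC (-5.52 ± 0.58, adjusted p = 3.50e-05), and Ctsh fell by 3.37 on the log2 scale (SE 0.66). The sialidase Neu1 rose by 2.95 (SE 0.52), and Scarb2, the receptor that carries glucocerebrosidase to lysosomes, by 2.48 (SE 0.31). Of 10 genes of serine, threonine and one-carbon metabolism 3 rose and 1 fell; 1 rose without A-iPSC 16, none fell without A-iPSC 19 or A-SC 1.3, and 3 fell without A-SC 1. Mthfd1, a folate enzyme, rose by 1.50 (SE 0.28). Of 12 amino acid transporters 4 rose, among them Slc38a5 and Slc7a3 above, and 2 fell; 2 rose and none fell without A-iPSC 19, and 1 fell without A-iPSC 16 or A-SC 1.3. Of 18 genes of ribosome biogenesis 1 rose and 1 fell; 3 fell without A-SC 1 and 2 without A-SC 1.4.

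**Figure D4:**
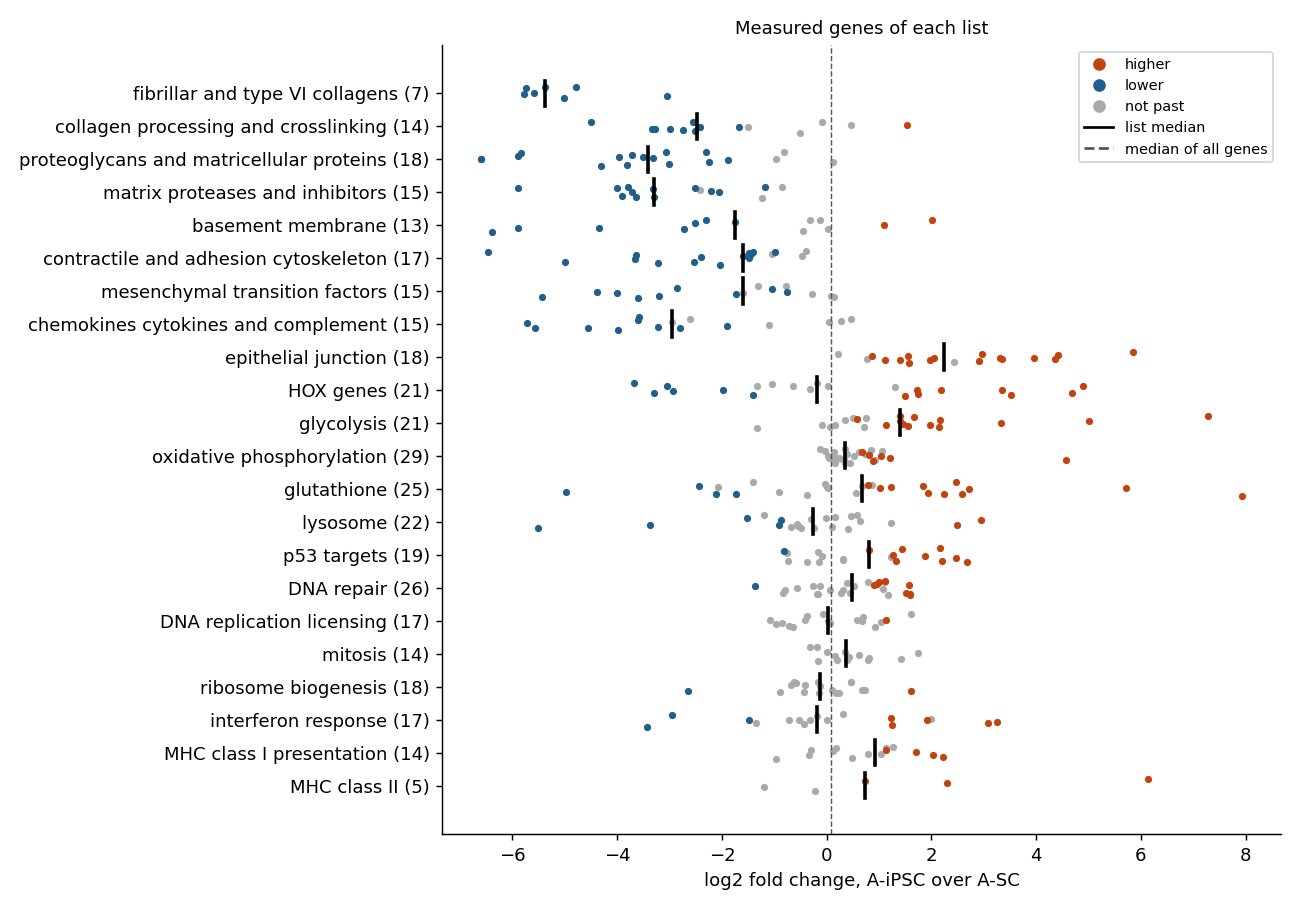
Log2 fold change, A-iPSC over A-SC (horizontal axis), of each measured gene of 22 lists, 1 point per gene, coloured by whether it rose, fell or did not pass. Black ticks give list medians and the dashed line the median of all 8781 genes, 0.086; the matrix lists lie left of it, with collagens at -5.38, and epithelial junction and glycolysis genes right of it, at 2.24 and 1.4.

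Cell cycle genes gave few calls. None of 14 mitosis genes passed, with a median of 0.37, also with any 1 of the 5 arrays left out; at the level of arrays, their mean log2 signal was 10.10 and 9.37 in A-iPSC, against 8.26, 10.05 and 9.56 in A-SC. A-SC 1 was thus the low array, and with arrays of the longer number format only, 10 of them rose, where A-SC 1 is the single A-SC array and its spread is taken from the other groups. Of 17 DNA replication genes 1 rose and none fell, with mean signals of 9.28 and 8.58 in A-iPSC, against 7.85, 9.79 and 8.88 in A-SC; 5 fell without A-SC 1, 2 rose without A-SC 1.3, and none rose without A-iPSC 16, A-iPSC 19, A-SC 1 or A-SC 1.4. Of 18 G1 cyclins and CDK inhibitors 4 rose and 4 fell; 2 fell without A-iPSC 16 or A-SC 1.3, and none without A-iPSC 19 or A-SC 1.4. Rb1, the retinoblastoma protein, read 11.91 and 12.01 in A-iPSC, against 9.41, 8.26 and 8.78 in A-SC (3.14 ± 0.43, adjusted p = 0.000225). E2f2, a partner of the RB family, rose by 2.69 (SE 0.36), and the CDK inhibitor Cdkn1b was at least 3.17-fold higher. Other CDK inhibitors known from senescence did not rise: Cdkn2a changed by -0.65 (adjusted p = 0.552) and Cdkn1a by 0.03 (adjusted p = 0.943). Their other probes did not pass either, and signs differed between probes. The other Cdkn2a probe changed by 0.67 (adjusted p = 0.157), and the other Cdkn1a probes by 0.46 (adjusted p = 0.251) and -0.76 (adjusted p = 0.0585). Cdkn2b fell by 1.06 on the log2 scale (SE 0.33, adjusted p = 0.0284), but its changes without A-iPSC 16, A-iPSC 19, A-SC 1 or A-SC 1.4, which lay between -1.13 and -0.94 (adjusted p from 0.0636 to 0.140), did not pass.

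Of 19 p53 targets 9 rose and 1 fell, with a median of 0.81; 3 rose without A-iPSC 19 and 4 without A-SC 1.3, and none fell without A-iPSC 16, A-iPSC 19, A-SC 1 or A-SC 1.4. Sesn1, a stress sensor that restrains mTORC1, read 10.42 and 10.23 in A-iPSC, against 8.57, 7.87 and 7.96 in A-SC (2.19 ± 0.31, adjusted p = 0.000320). Xpc, the damage sensor of nucleotide excision repair, rose by 2.17 (SE 0.30, adjusted p = 0.000238). Of 26 DNA repair genes 8 rose and 1 fell, with a median of 0.48; 2 rose without A-iPSC 16, and 2 fell without A-SC 1. Rad52, a recombination mediator, rose by 1.60 (SE 0.22). Apex1, the endonuclease of base excision repair, fell by 1.37 on the log2 scale (SE 0.26), while a second, dimmer probe changed by -0.64 and did not pass (adjusted p = 0.256). Of 12 genes of the RNA exosome and its cofactors 2 rose and 1 fell; 4 rose without A-SC 1.3, 1 rose without A-iPSC 16, A-iPSC 19 or A-SC 1.4, 2 fell without A-SC 1, and none fell without any other of the 5 arrays. Ttc37, the scaffold of the SKI complex, which hands RNA to the cytoplasmic exosome, read 10.05 and 9.94 in A-iPSC, against 6.87, 7.18 and 7.22 in A-SC (2.91 ± 0.20, adjusted p = 1.65e-06). Among the exosome subunits, Exosc2 changed by -0.91 (adjusted p = 0.190) and Exosc5 by 0.22 (adjusted p = 0.474). Exosc1 fell by 0.77 on the log2 scale (SE 0.27, adjusted p = 0.0436), and its changes of -0.92 without A-iPSC 16 (adjusted p = 0.0849), -0.62 without A-iPSC 19 (adjusted p = 0.246), -0.58 without A-SC 1.3 (adjusted p = 0.135) and -0.76 without A-SC 1.4 (adjusted p = 0.0940) did not pass.

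Secreted immune factors fell: 9 of 15 chemokines, cytokines and complement genes, with none higher and a median of -2.95, or -2.79 with undetected genes at their bounds. Csf1, the growth factor of macrophages, read 6.00 and 5.62 in A-iPSC, against 11.41, 11.37 and 11.34 in A-SC (-5.56 ± 0.37, adjusted p = 1.27e-06). Ccl2, which attracts monocytes, was not detected in A-iPSC and read 12.45, 9.33 and 9.83 in A-SC, at least 43.3-fold lower. Its neighbour Ccl7 changed by -4.56 ± 0.59, the stem cell attractant Cxcl12 by -3.97 ± 0.32 and the interleukin gene Il11 by -3.60 ± 0.71, all past the threshold. Antigen presentation genes behaved otherwise. Of 5 MHC class II genes 3 rose and none fell. Cd74, the invariant chain, read 9.96 and 11.62 in A-iPSC and was detected on no A-SC array, at least 51.8-fold higher (adjusted p = 2.83e-06), and H2-Ab1, a class II chain, rose by 2.29 (SE 0.30). Of 14 class I presentation genes 4 rose and none fell; 1 rose without A-iPSC 16, A-iPSC 19 or A-SC 1.3, 2 without A-SC 1.4 and 6 without A-SC 1. B2m, the light chain of class I molecules, changed by -0.97 (adjusted p = 0.118). Of 17 interferon response genes 5 rose and 3 fell; 3 rose without A-iPSC 16, and 1 rose and 1 fell without A-iPSC 19. The antiviral enzyme gene Oas2 was at least 5.90-fold higher, while Ifit2 was at least 7.31-fold lower.

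Early lineage genes were mostly not detected. Of 7 measured trophectoderm genes 3 rose and 2 fell, with none lower without A-iPSC 16. Tfap2c, a factor of trophectoderm and germ cells, read 9.48 and 8.76 in A-iPSC and was at least 16.3-fold higher, and Tead4, which specifies trophectoderm, rose by 2.23 (SE 0.38). Of 5 endoderm genes 1 rose, Cited1, a transcriptional co-regulator, at least 12.6-fold higher, and 1 fell. The only measured gene of mesoderm and primitive streak, Tbx6, rose by at least 3.78-fold. Of 4 neuroectoderm genes 2 fell: Ncam1, a neural adhesion molecule, was at least 9.17-fold lower, and Zic1, a zinc finger factor, at least 3.29-fold lower. Of 9 imprinted genes 1 rose and 2 fell, or 1 fell without A-iPSC 16. Snrpn, expressed from the paternal copy, rose by 1.82 (SE 0.37), and Ndn, of the same imprinted domain, fell by 2.37 on the log2 scale (SE 0.46).

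Markers of other skin cell types gave no common direction. Of 3 keratinocyte markers measured in the comparison 1 rose, though not without A-iPSC 19. Of 4 macrophage markers 1 rose, though not without A-iPSC 16, A-iPSC 19 or A-SC 1.4. Of 4 endothelial markers 1 rose: Tek, the angiopoietin receptor, read 10.16 and 10.40 in A-iPSC, against 8.57, 4.85 and 5.87 in A-SC (3.85 ± 0.81, adjusted p = 0.00367). Of 6 skeletal muscle markers 2 rose and 2 fell, and 1 rose without either A-iPSC array. The muscle actin gene Acta1 averaged 5.66 ± 0.49 in A-iPSC (SD, n = 2), against 10.90 ± 0.09 in A-SC (SD, n = 3) (-5.24 ± 0.68), and the slow troponin gene Tnnt1 rose by 3.08 (SE 0.56). Of 4 cartilage and bone markers 1 rose, the alkaline phosphatase Alpl, also high in pluripotent cells, by 2.32 (SE 0.46), and 1 fell, though not without either A-iPSC array. Of 2 adipocyte markers 1 fell, Pparg, a nuclear receptor of fat cells, which changed by -3.53 ± 0.51. The 1 measured Schwann cell and melanocyte marker, Mbp, rose by 3.70 (SE 0.51), while its other probes changed by 0.09 and -0.40. The part of other cell types in these changes was not tested.

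The change in tail tip cells was then set against the change in embryonic skin cells, Y-iPSC minus Y-SC, which shares no array with it. The difference of both changes passed for 504 of the 12839 probes (3.93%), 347 with a positive difference (2.7%) and 157 with a negative one (1.22%), and for 356 of the 8781 genes (4.05%), 240 (2.73%) positive and 116 (1.32%) negative. For comparison, 0.41% of the genes differed between A-SC and Y-SC, 25.7% between Y-iPSC and Y-SC, and 36.0% between A-iPSC and ESC. The difference of both changes adds up the sampling error of more groups than these contrasts do. Its share is therefore not a like measure. The number of probes with a difference was 195 without A-iPSC 19, 271 without A-SC 1.4, 307 without Y-iPSC 4, 332 without A-iPSC 16, 823 without A-SC 1 and 923 without Y-iPSC 12.

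Genes that rose in tail tip cells more than in embryonic cells were led by a receptor, channels and enzymes. Htr2b, a serotonin receptor, read 10.90 and 11.51 in A-iPSC, against 4.45, 4.88 and 5.35 in A-SC, and 4.63 and 4.56 in Y-iPSC, against 4.54, 5.16 and 5.81 in Y-SC; the difference was 6.89 ± 0.51 (adjusted p = 7.13e-05). Gpx2 read 5.02 and 4.49 in Y-iPSC, against 4.61, 4.98 and 4.52 in Y-SC, with a difference of 5.66 ± 0.34 (adjusted p = 7.57e-06). Both genes were thus near background on all embryonic arrays. Where a group did not detect a gene (A-SC for Gpx2, Kcnk13, Cd74 and Bsg, A-iPSC for 1110017D15Rik and Zic1, and embryonic groups for some genes), the difference is a fitted value against background, whose size is not exact and is no bound. Kcnk13, a potassium channel of the two-pore-domain family, had a difference of 6.26 ± 0.92 (adjusted p = 0.00354), and its relative Kcnk10 one of 5.10 ± 0.59 (adjusted p = 0.000934). Slc40a1, the iron exporter ferroportin, read 10.46 and 10.55 in A-iPSC, against 7.36, 5.73 and 6.16 in A-SC, and 6.97 and 5.94 in Y-iPSC, against 7.06, 8.13 and 8.99 in Y-SC, a difference of 5.69 ± 0.82 (adjusted p = 0.00306). Dner, a neuronal Notch ligand, had one of 5.66 ± 0.89, Cd74 one of 5.19 ± 0.64, and Bsg, basigin, one of 4.83 ± 0.61. The Bsg probe was detected on both A-iPSC arrays and on no other array of the series, ESC included. Whether it reads all basigin transcripts was not tested. Other genes were less stable.

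Gsta3 had a difference of 6.06 ± 1.18 (adjusted p = 0.0170), and 1 Y-iPSC array, 12, read 9.30 while Y-iPSC 4 read 5.49; without A-iPSC 16 or A-iPSC 19 its differences of 5.94 and 6.18 did not pass (adjusted p = 0.0589 and 0.0701). Hoxd4 had a difference of 5.27 ± 1.25 (adjusted p = 0.0395). It did not pass without A-iPSC 16 (5.30, adjusted p = 0.104), A-iPSC 19 (5.25, adjusted p = 0.151), A-SC 1.3 (4.70, adjusted p = 0.0750), A-SC 1.4 (4.69, adjusted p = 0.0896), Y-SC 1 (5.48, adjusted p = 0.0550), Y-SC 17 (4.68, adjusted p = 0.0702), Y-iPSC 12 (5.03, adjusted p = 0.0680) or Y-iPSC 4 (5.52, adjusted p = 0.0832). Twist1 also differed, by 2.94 ± 0.60 (adjusted p = 0.0215): its A-iPSC and A-SC arrays overlapped, while Y-iPSC read 5.85 and 6.42, against 9.39, 9.17 and 9.50 in Y-SC. Without A-iPSC 19 the difference of Twist1 was 2.31 (adjusted p = 0.110).

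The negative differences were led by genes that rose in embryonic cells. Slc2a3, a glucose transporter of early embryos and neurons, read 13.07 and 12.79 in Y-iPSC, against 7.76, 7.52 and 6.99 in Y-SC, so that its change in tail tip cells lay 5.60 lower (difference -5.60 ± 0.74, adjusted p = 0.00195). Scara5, a ferritin receptor, had a difference of -5.27 ± 0.75 (adjusted p = 0.00306) and rose by 5.85 in embryonic cells. Gstp2, a pi class glutathione transferase, had a difference of -5.33 ± 0.89 (adjusted p = 0.00729). It read 8.32 and 11.40 in Y-iPSC, against 4.85, 5.05 and 4.79 in Y-SC, and 6.76 and 6.70 in A-iPSC, against 7.15, 7.12 and 7.05 in A-SC. Part of its difference thus lay in the fibroblasts. The RIKEN clone gene 1110017D15Rik had a difference of -6.29 ± 0.96 (adjusted p = 0.00432), and Cdsn, the skin adhesion protein corneodesmosin, one of -5.18 ± 0.83 (adjusted p = 0.00607). The type IV collagen genes fell in both origins but further in tail tip cells: Col4a2 read 10.41 and 10.06 in Y-iPSC, against 11.97, 12.39 and 12.33 in Y-SC, and differed by -4.40 ± 0.54 (adjusted p = 0.00145), and Col4a1 by -3.57 ± 0.54 (adjusted p = 0.00401). Zic1 moved oppositely, with 9.77 and 9.58 in Y-iPSC, against 8.43, 7.22 and 8.06 in Y-SC, and differed by -4.06 ± 0.48 (adjusted p = 0.000999).

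Some of these were lost with an array left out. Loxl4, a lysyl oxidase, had a difference of -4.44 ± 0.86 (adjusted p = 0.0170), or -3.86 without A-iPSC 16 (adjusted p = 0.0690). Igfbp4, which binds insulin-like growth factors, read 6.04 and 6.58 in A-iPSC, against 10.53, 12.41 and 12.64 in A-SC, and had a difference of -5.28 ± 1.29 (adjusted p = 0.0462), which did not pass without A-iPSC 16 (-5.01, adjusted p = 0.131), A-iPSC 19 (-5.55, adjusted p = 0.138), A-SC 1.3 (-5.01, adjusted p = 0.0889), A-SC 1.4 (-4.89, adjusted p = 0.106), Y-SC 1 (-5.24, adjusted p = 0.0757), Y-SC 17 (-4.37, adjusted p = 0.0551) or Y-iPSC 4 (-4.74, adjusted p = 0.137). Tns4, a tensin of focal adhesions, differed by -4.73 ± 1.17 (adjusted p = 0.0473), and did not pass without A-iPSC 16 (-4.37, adjusted p = 0.143), A-iPSC 19 (-5.08, adjusted p = 0.130) or any 1 of the A-SC and Y-SC arrays (-4.57 to -4.85).

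**Figure D5:**
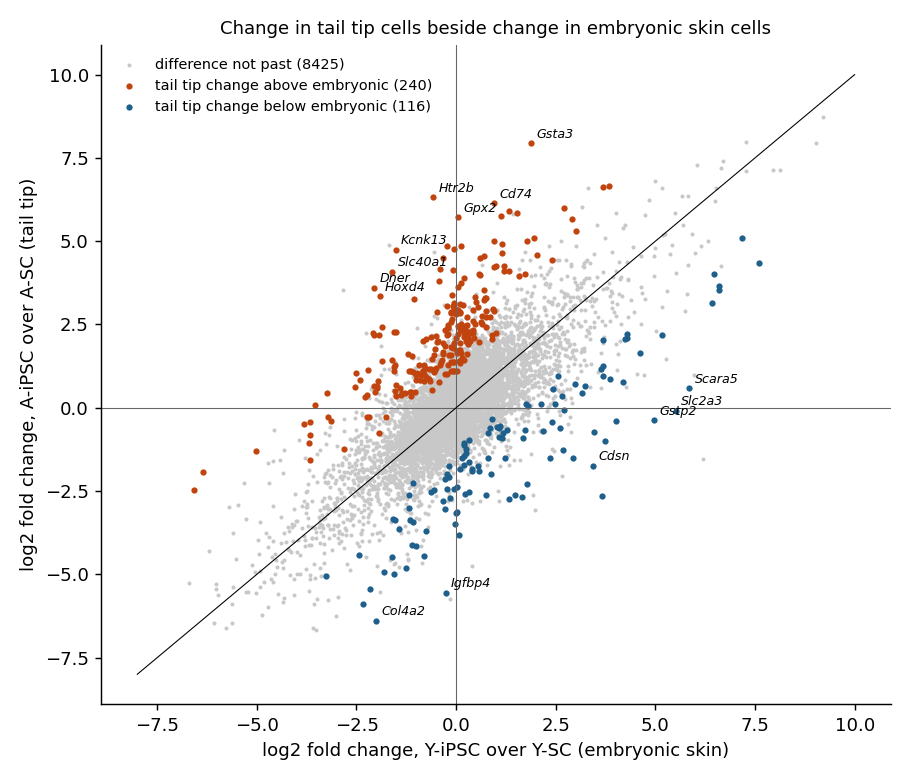
Log2 fold change of each of the 8781 genes in tail tip cells, A-iPSC over A-SC (vertical axis), against that in embryonic skin cells, Y-iPSC over Y-SC (horizontal axis), with the 356 genes whose difference passed in colour. Htr2b, Gpx2, Kcnk13 and Cd74 lie above the diagonal and Slc2a3, Scara5, Cdsn and Col4a2 below it.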

How the data were processed

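Total RNA of 14 samples was labelled with Cy3 and hybridized to MouseRef-8 v2.0 BeadChips, per the labels. The deposited raw table holds, per the file headers, an average bead intensity with its detection p-value on each array, for 25697 probes; a background step is not given in the sources used here. The authors' value table holds intensity on a linear scale, quantile normalized as its equal array maxima show, and was used as an alternative. The labels name lumi as processing tool, with no version. Array medians lay between 110.656 and 147.6, with 47.6% to 52.3% of the probes detected on an array. Precision is limited by how few arrays a group has.

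From the deposited intensity, log2 values were computed in R 4.3.3 with limma 3.58.1: neqc with an offset of 16, then lmFit on 14 arrays with 1 mean per group and eBayes (8 residual and 3.633 prior degrees of freedom), Benjamini-Hochberg over the 14742 probes that at least 1 group detected throughout (detection p under 0.05). A gene was taken by its brightest tested probe; 23978 probes had 1 symbol, none had several and 1719 had no symbol. Printed genes follow a rule: the 6 highest and lowest changes that do not overlap, per detection class; up to 5 largest passing members of each of 43 gene lists; a fixed set; and the 8 highest and lowest differences. Of these, mainly genes called in all fits with 1 array left out are printed. Alox genes, B2m, Bsg, Ccn1, Ccn2, Cdh2, Col5a1, Gapdh, Gdf3, Hoxa2, Hoxb2, Hoxc13, Kcnk10, Klk1b8, Klk1b11, Klk1b27, Lama4, Ldha, Mgp, Ocln, Pfkm, Pgk1, Sparc, Spint1 and Timp2 were named after their values were seen. Epcam, Fap, Fn1, Ly6a, Snai2 and Trp53, of the fixed set, were not tested here. The members, lists and rule were chosen with earlier results of these data known. Alternatives changed background, scaling, offset, filter, prior, weights, probe choice, arrays in the fit and number format, and left out each array of the groups compared. The pipeline was tested on simulated data. Promoters came from RefSeq (GRCm38.p6).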

Additional observations from a re-analysis of the deposited data

Results flagged for a closer look

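Groups of 2 or 3 arrays are too small for a test of single outlying arrays, so only differences between tail tip and embryonic skin cells were collected, by the limma test of the difference of both changes. The test passed for 504 probes. Where a gene was not detected in a group, its difference is a fitted value against background and no exact size. Differences are given on the log2 scale as the change in tail tip cells minus that in embryonic skin cells.

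In the differences already described, the change in tail tip cells was higher for Htr2b (6.89), Kcnk13 (6.26), Gsta3 (6.06), Slc40a1 (5.69), Dner (5.66), Gpx2 (5.66), Hoxd4 (5.27), Cd74 (5.19), Kcnk10 (5.10), Bsg (4.83) and Twist1 (2.94). It was lower for 1110017D15Rik (-6.29), Slc2a3 (-5.60), Gstp2 (-5.33), Igfbp4 (-5.28), Scara5 (-5.27), Cdsn (-5.18), Tns4 (-4.73), Loxl4 (-4.44), Col4a2 (-4.40), Zic1 (-4.06) and Col4a1 (-3.57).

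Other named genes passed the same test. Guca1a (4.59), Acsbg1 (3.28) and Eno2 (3.23) had a higher change in tail tip cells, as did Cited1 (3.25), Cox7a1 (2.55), Rad52 (2.16), Ttc37 (2.16), H2-Ab1 (2.05), Cldn3 (2.01) and Cdkn1b (1.87). The lipoxygenase genes Alox8 (3.60), Alox15 (3.39) and Alox12e (2.88) did so too. Fbxo15 (-3.08) and L1td1 (-2.09) rose in both origins but less in tail tip cells, and Sparc (-2.95), Cav1 (-2.21) and Apex1 (-1.63) had a lower change there. With single arrays left out, the differences of Apex1, Cav1, Cdkn1b, Cited1, Cldn3, Cox7a1, Eno2, H2-Ab1 and Sparc each failed to pass at least once. No explanation of these differences was tested.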

How the results depend on the processing

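Of 147 named genes that passed, 136 passed in all 5 fits with 1 A-iPSC or A-SC array left out; 7, 10, 2, 3 and 3 did not pass without A-iPSC 16, A-iPSC 19, A-SC 1, A-SC 1.3 and A-SC 1.4. With each A-iPSC or A-SC array left out in turn, probes past the threshold numbered 2730 to 5151, those higher 1486 to 2706 and those lower 1244 to 2445; for the difference from embryonic cells, where Y-iPSC and Y-SC arrays were left out as well, the numbers were 195 to 923 in all, 146 to 579 higher and 49 to 344 lower, with 271, 198 and 73 without A-SC 1.4. With arrays of the longer number format only, which leaves 1 A-SC array with a spread taken from other groups, 251 probes passed in the difference, 125 of them higher, 19 of the named genes did not pass, among them En1, Hoxa2, Hoxb2, Hoxc10, Il11, Tek, Alpl and Snrpn, and Mgp turned to 1.89 (adjusted p = 0.0104). The planned fit with A-SC arrays of the shorter format alone equals the fit without A-SC 1. With the mean over a gene's probes, Cd44 turned to 1.49 (adjusted p = 0.0419). The 147 named genes were mainly chosen from those that passed in all fits with 1 array left out. Their count of 136 was thus largely fixed by that choice and does not describe other probes. Array weights, cyclic loess, a detection p under 0.01 and a trended robust prior changed no call among the 147. Number format as a block ended 9 of them, the fit of the 5 arrays alone 5, no background correction 4, the values the authors deposited 3, no filter on dim probes 2, and median scaling and an offset of 50 ended 1 each. No paired analysis was possible because the clone codes of A-iPSC and A-SC do not pair arrays. Genes near background can change more than their log2 values show, since the offset compresses them. The causes were not tested.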

Other observations

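Some lipoxygenase genes, whose enzymes oxidize polyunsaturated fatty acids, were picked after their values were seen. Alox15 read 7.59 and 9.18 in A-iPSC and was detected on no A-SC array, at least 9.78-fold higher (adjusted p = 1.37e-05), and Alox8 was at least 8.94-fold higher. Alox12e read 7.37 and 7.83, at least 5.66-fold higher, and Alox12b at least 5.07-fold higher. In Y-iPSC, Alox15 read 4.90 and 5.14, Alox8 read 4.85 and 4.55, and Alox12e read 4.63 and 4.34. For Alox12b the difference from embryonic cells was -0.18 and did not pass (adjusted p = 0.848). Aloxe3 was detected on 2 A-SC arrays as well, changed by 1.68 (adjusted p = 0.0255), and its difference of 1.38 did not pass (adjusted p = 0.341).

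Chromosomes differed in the share of probes that rose and fell, among probes detected on every array of both groups. On chromosome 6, 26.6% of 492 probes rose and 12.8% fell, and on chromosome 4, 10.3% of 583 rose and 24.7% fell. On the X chromosome 22.1% of 290 rose and 12.8% fell, against 16% and 15.8% of 9185 probes on all autosomes. These shares have no test. Of the 5 arrays compared, only A-SC 1.3 and 1.4 detected Xist, and the part of this in the X share was not tested.

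In 15 genes both A-iPSC arrays lay within 2-fold of A-SC 1 and at least 8-fold from both A-SC 1.3 and A-SC 1.4. In 9 of them the signal was low, and in 6 it was high. No gene met this rule with A-SC 1.3 or A-SC 1.4 in place of A-SC 1. Since A-SC 1.3 and A-SC 1.4 were alike (correlation 0.978), such a gene could hardly occur. Psmb6, a catalytic subunit of the proteasome, read 7.13 and 6.88 in A-iPSC, against 6.17, 11.71 and 11.74 in A-SC. It read 7.59 and 8.35 in A-iPSC-ZSCAN10, and 12.68 and 12.59 in ESC. All Y-iPSC and Y-SC arrays read 11.53 to 12.41. Thumpd1, an RNA-binding cofactor of tRNA acetylation, read 4.58 and 4.57 in A-iPSC, against 4.49, 9.26 and 9.56 in A-SC, and 9.32 and 4.65 on Y-iPSC 12 and 4, against 9.19, 9.20 and 9.95 in Y-SC. The other low genes were Abi3bp, Dio3, Has2, Klra4, Serpinb2, Srpx and Xist, and the high ones were AI467606, Bst2, Dennd3, Hoxd10, Jam2 and Tmem176b. Dennd3 read 8.68 and 9.28 in A-iPSC, against 8.32, 4.58 and 5.27 in A-SC, and no other array of the series read above 6.85. These genes were chosen by their values and have no test. Genes in which A-iPSC lay with A-SC 1.3 and 1.4 and away from A-SC 1 were not counted. Emcn and Pecam1, given above, are such genes.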
